A study of Mus musculus with 28 samples.

Results

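The comparison described here is *Tgfbr1* KO against WT naïve CD4+ T cells cultured with TGF-β, by RNA-seq. It rests on 6 libraries, 3 KO TGF-β and 3 WT TGF-β, of the 24 RNA-seq libraries and 28 libraries in all of the series, the other 4 being DNase-seq. The members were chosen by genotype and culture, and their columns in the deposited table were taken by position, in the order of the library numbers. The titles number the replicates within each genotype, and whether a number stands for 1 mouse is not given in the sources used here. All cultures received TCR stimulation, with anti-CD3 and anti-CD28 per the study's methods. Control cultures of both genotypes received no added cytokine, and TGF-β + IL-4 cultures of both genotypes received both cytokines. They are used below only for comparison. The labels give the genotype as WT or KO. The study describes *Tgfbr1* f/f *Ert2-cre*+ mice on a C57BL/6 background, young adults of both sexes, in which tamoxifen deletes the gene (KO) and oil does not (WT), so that WT cells carry the floxed alleles and the *cre* too. It also kept *Tgfbr1* f/f *Cd4-cre*+ mice, and the line behind the RNA-seq libraries and the hours of culture are not given in the sources used here. The labels of the DNase-seq libraries name oil for WT and tamoxifen for KO. If the RNA-seq donors were treated likewise, effects of genotype and of tamoxifen cannot be told apart in any culture.

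TGF-β is a cytokine that binds a receptor of type II and type I subunits. The type II subunit, Tgfbr2, activates the type I kinase, Tgfbr1, which phosphorylates Smad2 and Smad3, and these enter the nucleus with Smad4. Smad7, Ski and Skil restrain the pathway and are themselves known targets of it. In CD4+ T cells TGF-β is known for inducing the regulatory T cell factor Foxp3, for its part in Th17 and, with IL-4, Th9 differentiation, and for restraining IL-2 and cytotoxic genes.

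The order of the columns is not fully proven. The headings of the table differ from the library-number order in 20 of 24 columns, including all 6 used here, although both place WT in columns 1 to 12 and KO in columns 13 to 24. Read counts that the study lists for part of the genes of 8 WT libraries, replicates 1 and 3 of each culture, were set against each of the columns, on the pattern of genes listed at 0. All 8 matched the column given by library number, with at least 99.85% of genes in accord against at most 85.79% for the next column, and 2 of the 8 matched the column carrying their own heading. WT TGF-β replicate 2 and all KO columns were not matched in this way, so for KO the order is inferred. The median SD between the replicates of a culture was 0.0805 on the log2 scale for WT TGF-β by order and 0.1185 by heading, and 0.0805 and 0.0961 for KO TGF-β. In the KO cultures without cytokine and with both cytokines the spread was larger by order (0.0942 and 0.1158) than by heading (0.089 and 0.101).

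**Figure D1:**
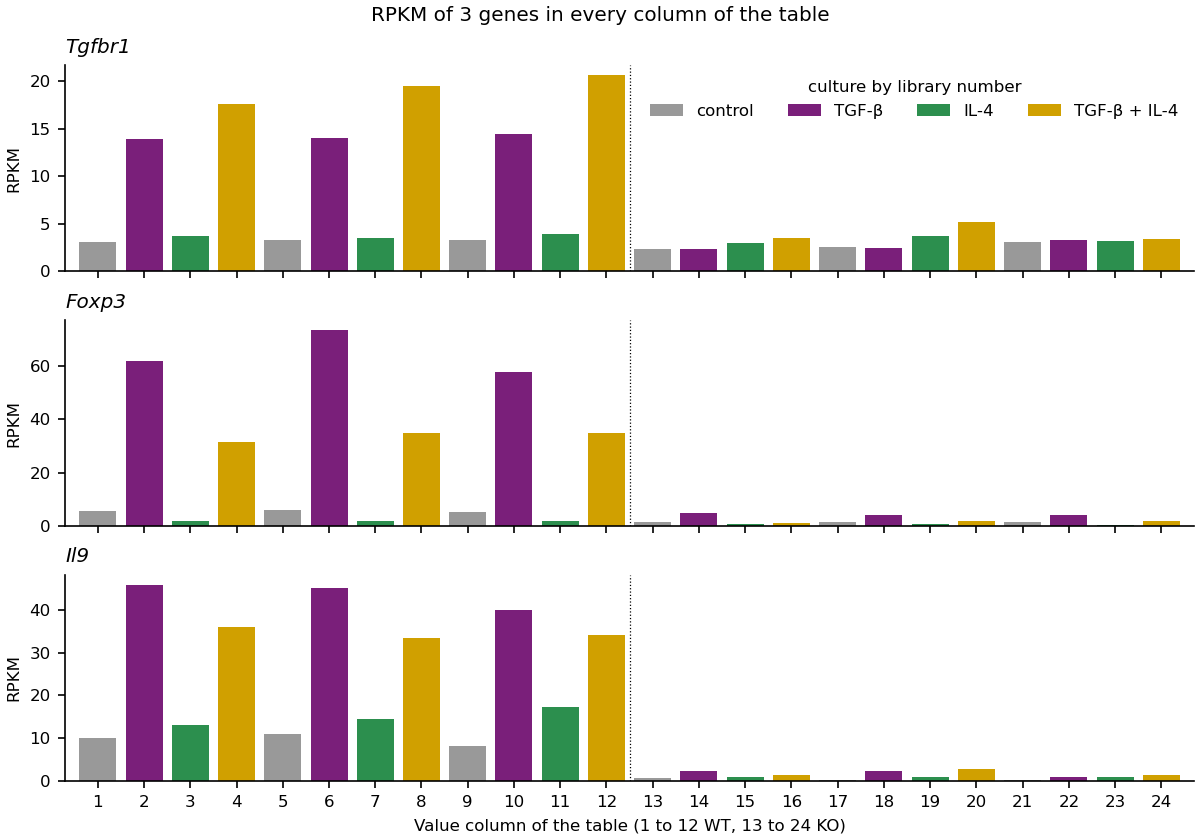
RPKM (reads scaled by the length of the gene and by library size) of *Tgfbr1*, *Foxp3* and *Il9* in each of the 24 value columns, coloured by the culture that the library number gives. In the WT columns the 3 TGF-β columns recur 4 columns apart, with *Foxp3* between 57.6 and 73.4, and in the KO columns *Foxp3* stays at or below 4.75.

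Under TGF-β, 938 of 9687 genes tested (9.68%) differed between KO and WT cells, of which 633 (6.53%) were lower and 305 (3.15%) higher in KO. The chemokine receptor gene *Ccr8*, the water and glycerol channel gene *Aqp3*, the cytokine gene *Il9* and *Foxp3* had the largest decreases. *Nrn1*, which encodes neuritin, the kinase gene *Plk2*, the granzyme B inhibitor gene *Serpinb9* and *Il2* had the largest increases. The median log2 difference was −0.89 among the genes called lower and 0.85 among those called higher, and 48 genes were lower and 18 higher by more than 2 on the log2 scale. A gene was tested when its mean RPKM over the 6 libraries was at least 1, and called by limma where the adjusted p was below 0.01 and the fold change above 1.5, all differences being KO minus WT in log2(RPKM + 1), a scale that understates the change of low genes. Without adjustment 4673 genes had a p under 0.05. All 938 had RPKM ranges that did not overlap between genotypes, as had 51.5% of all genes tested. A lack of overlap given below for a called gene therefore adds nothing to its call. The p-values measure only the spread between 3 libraries of each genotype, which may be technical, and in bulk RNA fewer cells of a type and less RNA per cell cannot be told apart.

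The genotype of a column does not depend on the order within KO. The 3 WT TGF-β values lay outside the range of all 12 KO columns, whatever their culture, for 768 of the 938 called genes (81.9%) and for 26.9% of all genes tested. They did so for all 24 of the leading genes, the 12 with the largest increase and the 12 with the largest decrease. Called and leading genes were chosen with these same WT values and 3 of the KO columns, which favours high shares. The shares therefore do not test the order of the columns. With the columns taken as headed, limma called 0 genes, and 3284 had an unadjusted p under 0.05. The RPKM of the 6 libraries summed to between 660303 and 688892, and their depth, read from the steps between low values, lay between 0.726 and 1.213 times that of WT TGF-β replicate 1.

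**Figure D2:**
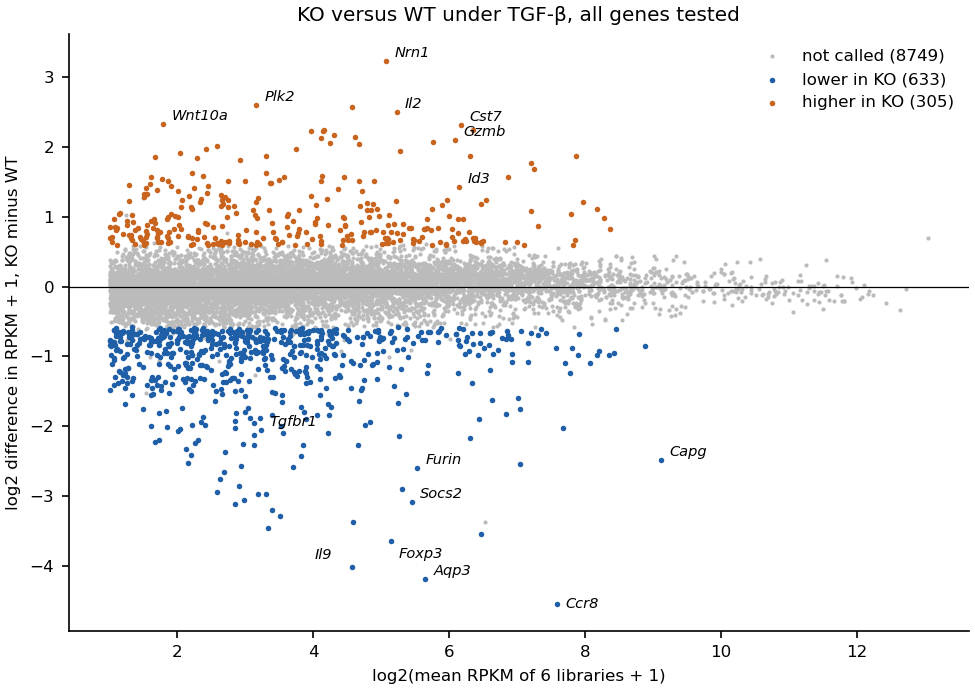
Each point is a gene tested, with log2(mean RPKM + 1) of the 6 libraries on the horizontal axis and the log2 difference, KO minus WT, on the vertical axis. Called genes are coloured, 633 lower and 305 higher in KO, and *Ccr8* and *Nrn1* lie at the lower and upper end.

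*Tgfbr1*, the targeted gene, lies on mm9 at chromosome 4, 47366094 to 47427803, plus strand. Its RPKM was 13.9, 14 and 14.5 in the WT TGF-β libraries and 2.37, 2.42 and 3.24 in the KO TGF-β libraries. The groups did not overlap, and the log2 difference was −2.05 ± 0.10 (SE, n = 3 and 3, adjusted p = 1.29e-06). In control cultures *Tgfbr1* was at 3.02 to 3.31 in WT and 2.32 to 3.05 in KO, a log2 difference of −0.21 (adjusted p = 0.16), so KO TGF-β cells were near the level of both control groups. A value over the whole gene does not show which exons were read, and therefore does not by itself check the deletion.

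Of 26 genes for TGF-β receptors, ligands and their activators, 11 were tested, 7 were lower in KO and none was higher. The 7 include *Tgfbr1*, the targeted gene described above. The counts of this and every later list stand beside the shares over all genes tested, 6.53% lower and 3.15% higher. *Furin*, which encodes the protease that cleaves the TGF-β precursor, had 84.7, 77.4 and 73.3 RPKM in WT and 13.4, 11.8 and 11.1 in KO (log2 difference −2.60 ± 0.08). *Lrrc32*, whose product GARP holds latent TGF-β at the cell surface, had 4.67, 4.67 and 4.17 in WT and 0.517, 0.576 and 0.742 in KO. *Tgfbr2* was lower as well, at 15.5 to 18.7 in WT and 9.16 to 10.8 in KO (−0.76). *Tgfb1*, *Acvrl1* and *Eng* were the other genes called. The ligand gene *Tgfb1* had 8.09, 5.29 and 9.94 in WT and 3.17, 4.18 and 2.82 in KO, and lost its call without WT replicate 1 or 3 or KO replicate 1 or 3 (adjusted p between 0.0154 and 0.0219). The co-receptor gene *Tgfbr3* was not called, with 7.09 to 8.63 in WT and 7.21 to 8.31 in KO. The median log2 difference of the 11 genes, *Tgfbr1* included, was −0.77, against 0.006 for all genes tested.

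Among the Smads, 6 of 8 genes were tested and 2 were lower in KO. *Smad3* had 5.98, 5.83 and 5.01 RPKM in WT and 2.45, 2.34 and 2.36 in KO (−0.96 ± 0.08, adjusted p = 3.83e-05). The inhibitory *Smad7* had 1.71, 1.88 and 1.91 in WT and 0.444, 0.319 and 0.331 in KO (−1.06). Neither gene overlapped between genotypes. *Smad2*, which is activated by the same receptor, was not called, at 6.22 to 6.83 in WT and 6.87 to 7.37 in KO, and *Smad5* was not called either.

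The genes for feedback inhibitors and Smad co-repressors gave 5 lower and 0 higher of 10 tested. *Skil*, a co-repressor of Smads, had 11.3, 9.38 and 11.0 RPKM in WT and 1.76, 1.82 and 1.94 in KO (−2.02 ± 0.09, adjusted p = 6.81e-07). *Ldlrad4* and *Pmepa1*, whose products bind Smads at membranes and limit their activation, differed by −2.32 and −2.24, and *Ski* by −1.46. In these 4 genes every KO value lay below every WT value. *Fkbp1a* and *Tgif2* were the most abundant genes of the list that were not called. In a wider list of known TGF-β target genes, 11 of 20 tested were lower in KO and 4, *Id3*, *Gadd45b*, *Itgb3* and *Fos*, were higher. This list shares members with the others, among them *Smad7*, *Skil*, *Pmepa1*, *Furin*, *Ccr8*, *Nt5e* and *Itgae*. Like the others, it was chosen with earlier results of these data known, so its count is no independent evidence. *Id1*, an inhibitor of E proteins, had 11.1, 13.2 and 11.6 in WT and 1.24, 2.08 and 1.88 in KO, and *Junb* and *Id2* were not called.

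**Figure D3:**
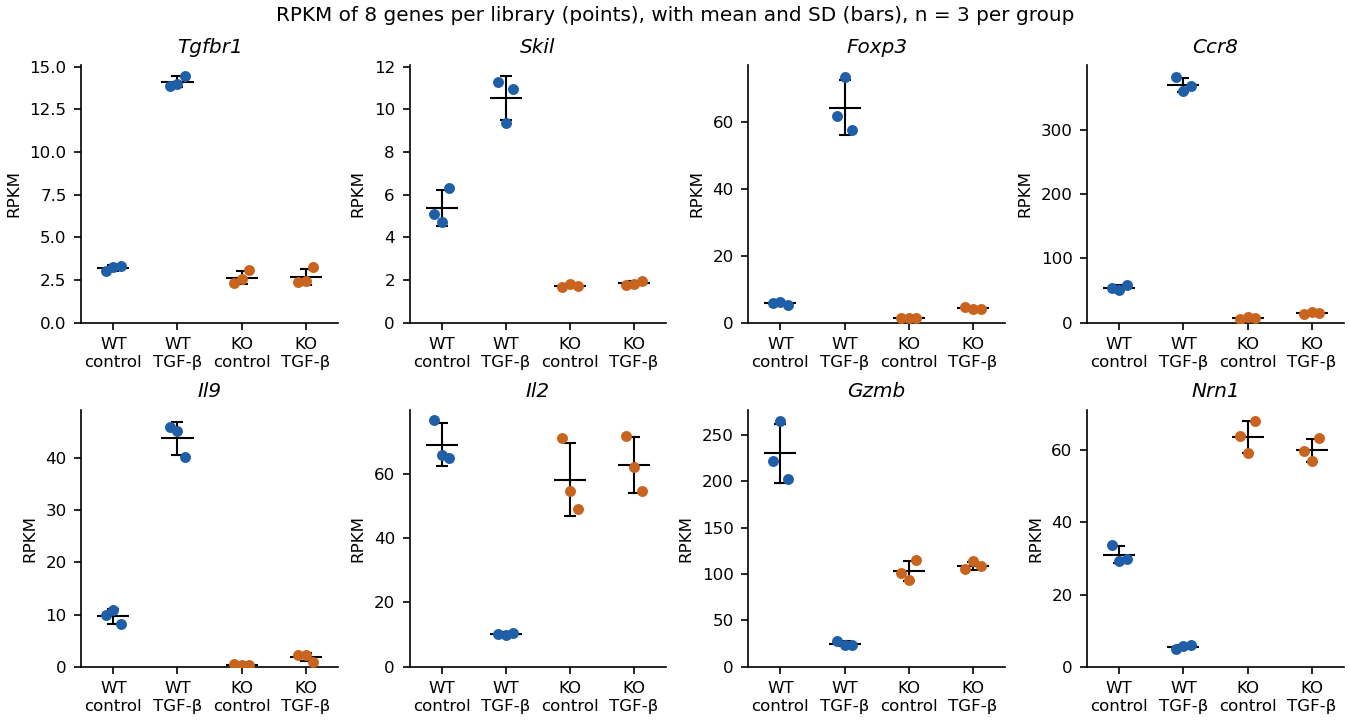
RPKM of 8 genes in each WT and KO library of the control and TGF-β cultures (points), with the mean (line) and SD (bars) of 3 libraries. *Tgfbr1*, *Skil*, *Foxp3*, *Ccr8* and *Il9* are highest in WT TGF-β, and *Il2*, *Gzmb* and *Nrn1* are lowest there.

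The genes of induced regulatory T cells gave 13 lower and 2 higher of 21 tested, with a median of −0.97. *Foxp3*, on chromosome X, 7156802 to 7172369, had 61.9, 73.4 and 57.6 RPKM in WT and 4.75, 3.95 and 3.92 in KO (−3.65 ± 0.10, adjusted p = 9.69e-08). *Ccr8*, on chromosome 9, 120001251 to 120004024, had 381, 359 and 368 in WT and 13.4, 16.2 and 15.4 in KO (−4.54 ± 0.07, adjusted p = 4.85e-09). For both genes the groups lay far apart, with no KO value near a WT value. *Nt5e*, which encodes the ectoenzyme CD73, *Itgae*, the integrin chain CD103, and *Capg*, an actin-capping protein, differed by −3.28, −2.22 and −2.48. *Capg* was the most abundant of them, at 925 to 964 in WT and 164 to 170 in KO. *Socs2*, a suppressor of cytokine signalling, had 77.6, 76.0 and 78.2 in WT and 8.55, 8.14 and 8.03 in KO. *Tnfrsf4* and *Tnfrsf18*, the genes for OX40 and GITR, were not called, with log2 differences of −0.29 and −0.11.

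The Th17 list gave 11 lower and 1 higher of 13 tested, a median of −1.39. The cytokine gene *Il17f* had 12.4, 11.0 and 12.4 RPKM in WT and 0.532, 0.666 and 0.335 in KO (−3.10 ± 0.10, adjusted p = 1.72e-07). Its groups did not overlap. *Ccr6* and *Ccl20*, a receptor and its ligand, differed by −2.97 and −2.85, the aryl hydrocarbon receptor gene *Ahr* by −1.76 and *Il6ra* by −1.52. *Batf* was not called.

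The Th9 list gave 10 lower and 1 higher of 20 tested. *Il9*, on chromosome 13, 56580638 to 56583607, minus strand, had 45.9, 45.2 and 40.1 RPKM in WT and 2.33, 2.29 and 0.936 in KO (−4.01 ± 0.19, adjusted p = 1.38e-06). All KO values were far below the lowest WT value. The WT TGF-β values also lay above those of all other WT columns, at 8.15 to 36.1, which include TGF-β + IL-4. The paper, by contrast, describes TGF-β alone and IL-4 alone as unable to make T cells transcribe *Il9*. The reason for this difference was not tested. *Stat5a*, a signal transducer of IL-2 family cytokines, had 171, 174 and 147 in WT and 78.9, 76.0 and 76.5 in KO (−1.07), and *Stat5b* differed by −1.24. *Dbp*, a PAR bZIP factor of the circadian clock, had 4.97, 6.24 and 6.62 in WT and 2.83, 2.94 and 2.33 in KO (−0.90 ± 0.11, adjusted p = 0.00038). *E2f8*, an atypical E2F repressor, was not called. Its RPKM was 7.59, 5.84 and 6.11 in WT and 9.72, 8.62 and 8.24 in KO (0.40 ± 0.10, adjusted p = 0.015), so the ranges did not overlap but the difference was short of both thresholds. *Foxo1* was lower in KO (−1.06) and *Irf4* was not called (−0.53), although it was without WT replicate 3 (−0.59, adjusted p = 0.000511). *Ccl17* was called with a wide spread, at 1.80 to 4.76 in WT and 0.281 to 1.38 in KO, and lost its call without WT replicate 1 or 3 or KO replicate 1 or 3 (adjusted p between 0.0257 and 0.0271).

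The promoters of *Ccr8*, *Aqp3* and *Il9* are shown because these 3 genes had the largest decreases. Each is a window of 300 bases around the annotated start, from RefSeq on GRCm38.p6, and capitals mark matches on either strand to the Smad-type motifs CAGACA, or the longer GTCTGNCC, or the palindrome GTCTAGAC, to the AP-1 element TGANTCA, or to the GC-rich motif GGCGCC.
Ccr8, chr9:120091883-120092182, plus strand: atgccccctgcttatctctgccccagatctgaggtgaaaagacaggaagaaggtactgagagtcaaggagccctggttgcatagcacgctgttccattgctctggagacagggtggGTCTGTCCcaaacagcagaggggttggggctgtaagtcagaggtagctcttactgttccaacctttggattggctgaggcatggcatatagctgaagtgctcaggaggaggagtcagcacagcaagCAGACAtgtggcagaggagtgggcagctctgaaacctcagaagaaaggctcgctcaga
Aqp3, chr4:41098134-41098433, minus strand: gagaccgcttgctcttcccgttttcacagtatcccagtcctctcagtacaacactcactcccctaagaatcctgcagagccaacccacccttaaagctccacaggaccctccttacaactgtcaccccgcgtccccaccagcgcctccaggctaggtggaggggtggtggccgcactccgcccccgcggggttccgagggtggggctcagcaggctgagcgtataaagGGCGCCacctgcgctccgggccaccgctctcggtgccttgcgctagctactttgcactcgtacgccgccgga
Il9, chr13:56482208-56482507, minus strand: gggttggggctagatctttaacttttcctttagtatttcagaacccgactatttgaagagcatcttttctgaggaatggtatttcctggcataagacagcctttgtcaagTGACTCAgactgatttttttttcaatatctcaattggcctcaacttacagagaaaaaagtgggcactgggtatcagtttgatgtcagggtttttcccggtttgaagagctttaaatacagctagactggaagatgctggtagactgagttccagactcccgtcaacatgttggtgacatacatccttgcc

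The first 3 motifs overlap, as each holds the Smad-binding letters GTCT on one of the strands. The *Ccr8* window holds CAGACA once and also GTCTGNCC, the *Il9* window holds TGANTCA, and the *Aqp3* window holds none of these but GGCGCC. The windows of *Foxp3*, which had the next largest decrease, and of *Il2* hold none of the 5 motifs. Of 7360 tested genes with a window, 671 were called. CAGACA was in 18% of the windows of genes lower in KO, 20.6% of those higher, 14.9% of those not called and 21% of all 32851 windows. TGANTCA was in 8.90%, 8.54%, 4.16% and 7.81%, and GTCTGNCC in 5.72%, 4.52%, 4.72% and 4.8%. The palindrome GTCTAGAC was in 0.212%, 0.503%, 0.179% and 0.213%, and GGCGCC in 16.7%, 13.6%, 22.1% and 11.9%. These are descriptions of letters in a window, and the motifs were chosen with the results known.

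Cytotoxic genes and activation cytokines were among the genes higher in KO. Of 22 Th1 and cytotoxic genes tested, 9 were higher and 6 lower. *Serpinb9* had 7.21, 4.39 and 6.22 RPKM in WT and 37.0, 43.0 and 38.9 in KO (2.57 ± 0.14, adjusted p = 3.07e-06). *Stat4*, the transducer of IL-12 signals, had 6.10, 4.50 and 5.30 in WT and 27.8, 28.4 and 28.2 in KO (2.22 ± 0.09). The granzyme B gene *Gzmb* had 27.6, 23.9 and 23.2 in WT and 105, 114 and 108 in KO (2.09 ± 0.07). In all of them every KO value exceeded every WT value, as in every called gene that was higher in KO. *Eomes*, a T-box factor, and *Fasl*, the death ligand, were higher by 1.47 and 1.44, while the lymphotoxin gene *Lta* was lower (−2.03). *Srgn* was not called.

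Of 16 activation cytokines tested, 6 were higher and 3 lower in KO. *Il2*, the T cell growth factor gene on chromosome 3, 37019445 to 37024881, had 10.3, 9.75 and 10.6 RPKM in WT and 71.7, 62.0 and 54.5 in KO (2.50 ± 0.09, adjusted p = 3.28e-07). *Tnfsf11*, which encodes RANKL, had 8.17, 8.04 and 7.82 in WT and 43.3, 35.3 and 37.9 in KO. *Tnfsf8* and *Cd40lg* were higher by 2.13 and 1.20, and *Ccl1* was lower (−2.17). *Xcl1* and *Il16* were not called.

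The other leading genes higher in KO did not belong to these lists. *Nrn1* had 4.95, 5.71 and 5.93 RPKM in WT and 59.9, 56.9 and 63.3 in KO (3.23 ± 0.07, adjusted p = 3.38e-08). *Plk2* had 1.63, 1.59 and 1.37 in WT and 12.6, 15.2 and 15.2 in KO, and the Wnt ligand gene *Wnt10a* 0.103 to 0.189 and 4.41 to 5.20. *Cst7*, which encodes the cathepsin inhibitor cystatin F, had 21.9, 22.6 and 24.9 in WT and 113, 119 and 125 in KO. None of these 4 overlapped between genotypes. *Ifitm2*, *Serpinb6b* and *Ms4a4c* belong to families of similar genes, as does *Apol9b* among the genes lower in KO. Reads of close copies may have been discarded as poorly mapped or assigned to a similar gene. These genes differed, in that order, by 2.25, 2.24, 2.16 and −3.05, and the transporter gene *Slco4a1* by 2.22. Lower in KO were also *Aqp3*, with 96.5, 87.3 and 98.5 in WT and 4.58, 4.21 and 3.88 in KO, *Ctsw*, which encodes cathepsin W, with 155 to 170 and 12.3 to 13.5, *Syp* with 16.8 to 17.9 and 0.504 to 0.909, and *Fbxo2* with 17.8 to 18.1 and 0.896 to 1.42.

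**Figure D4:**
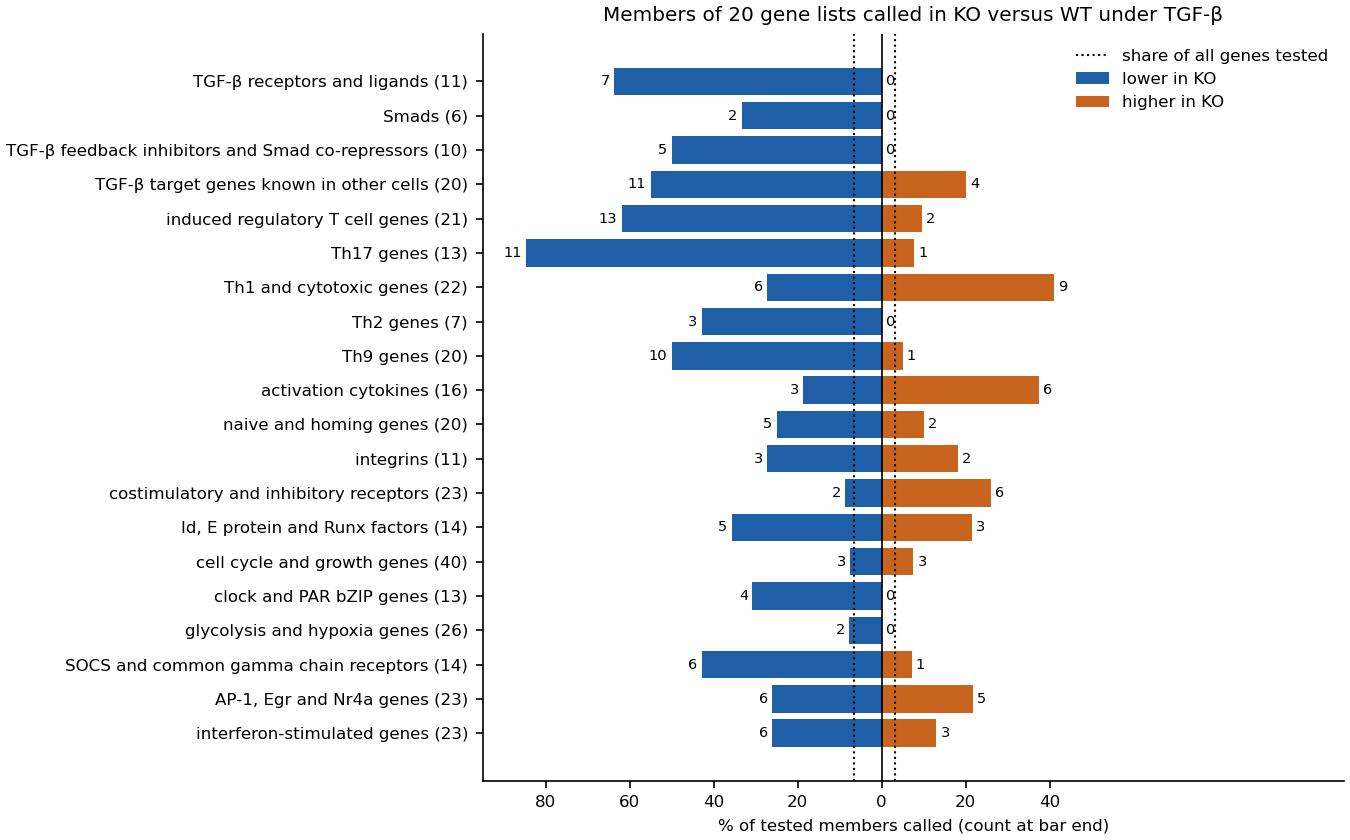
Share of the tested members of 20 gene lists (number tested in brackets) called lower (left) and higher (right) in KO under TGF-β, with the count at the end of each bar. The dotted lines mark the shares over all genes tested, 6.53% lower and 3.15% higher, and the Th17 list has the largest share lower, 11 of 13.

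Other lists moved in both directions or little. The Th2 list gave 3 lower of 7 tested, *Ccr8*, *Ccr4* and *Maf*, and the receptor gene *Il4ra* and *Stat6* were not called. Naïve and homing genes gave 5 lower and 2 higher of 20, with *Klf2*, a quiescence factor, at 6.63 to 11.8 RPKM in WT and 1.88 to 2.36 in KO. *S1pr1*, the receptor for exit from lymph nodes, was lower too (−1.32), and *Dapl1* higher (1.51). Integrins gave 3 lower and 2 higher of 11, and costimulatory and inhibitory receptors 2 lower and 6 higher of 23, among them *Adora2a*, *Cd226* and *Cd69* higher by 1.10, 0.99 and 0.97. Id, E protein and Runx factors gave 5 lower and 3 higher of 14, with *Ikzf4* lower by 1.92 (log2 difference −1.92) and *Id3* higher by 1.42. SOCS and common gamma chain receptor genes gave 6 lower and 1 higher of 14. *Il2rb* and *Il2ra*, subunits of the IL-2 receptor, were lower (−1.09 and −0.86), *Il15ra* was higher (1.52), and *Il2rg* was not called.

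AP-1, Egr and Nr4a genes gave 6 lower and 5 higher of 23, led by the phosphatase gene *Dusp4* (−2.14) and *Jun* (−1.45). Interferon-stimulated genes gave 6 lower and 3 higher of 23, with *Gbp4* at 14.4 to 15.5 RPKM in WT and 57.3 to 62.8 in KO, and *Irf7* lower (−1.01). Clock and PAR bZIP genes gave 4 lower and 0 higher of 13, *Npas2*, *Nr1d1*, *Dbp* and *Arntl*, with a median of −0.23. Cell cycle and growth genes gave 3 lower and 3 higher of 40 tested, beside shares of 6.53% and 3.15% over all genes tested. The list had a median of 0.21, and 34 of its tested members were not called. The 3 higher were the mitotic genes *Bub1*, *Aurkb* and *Ccnb1* (0.64, 0.63 and 0.63) and the 3 lower the Cdk inhibitor genes *Cdkn1b*, *Cdkn1a* and *Cdkn2d*. Of these 6, *Cdkn1b* alone kept its call without any 1 library. *Bub1* (0.54) and *Ccnb1* (0.54) fell short of the fold threshold without WT replicate 2, *Ccnb1* (0.56) without KO replicate 2, *Aurkb* (0.58) without WT replicate 3, *Cdkn1a* (−0.58) without KO replicate 1 and *Cdkn2d* (−0.58) without KO replicate 3. Glycolysis and hypoxia genes gave 2 lower of 26, a share close to that of all genes tested. They were *Egln3* and *Eno1*, and *Gapdh* and *Ldha* were not called. A list of 10 genes strongly changed by TGF-β + IL-4 in WT cells, which was taken from this study's own samples and is no independent evidence, gave 4 lower and 4 higher of 9.

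Some markers of other cell types differed between the genotypes as well, while others were not called. Over all genes tested the shares were 6.53% lower and 3.15% higher. The summed RPKM of 12 B cell markers was 170.9 to 214.4 in WT and 92.4 to 105.3 in KO, and 4 of 8 tested were lower, *H2-Ab1*, *H2-Aa*, *Cd79a* and *Cd74*. The defining *Ms4a1* was at 1.02 to 1.58 in WT and at 0.923 to 1.23 in KO, and was not called. Myeloid markers summed to 55.8 to 94.7 in WT and 9.46 to 20.8 in KO, and 2 of 8 tested were lower, *S100a8* and *S100a9*. *S100a8*, one of the 12 genes with the largest decreases, had 52.2, 32.0 and 44.5 in WT and 3.44, 2.76 and 3.38 in KO. In control cultures it was at 3.20, 11.4 and 9.89 in WT and 0.160, 0.526 and 11.3 in KO, so KO control replicate 3 stood apart. The myeloid genes *Itgam* and *Csf1r* were too low to be tested, at 0.314 to 0.478 and 0.277 to 0.433 in WT and 0.0842 to 0.143 and 0 to 0.074 in KO. *Cd8a* was lower in KO (1.27 to 1.53 against 5.04 to 5.58) and *Cd8b1* was not called. Dendritic cell markers summed to 2.78 to 3.89 and 2.59 to 2.92, and erythroid markers to at most 0.235, with 3 of 5 listed at 0 in all 6 libraries. The sum of NK and γδ T cell markers was almost wholly *Il2rb*. CD4 T cell markers were high in both genotypes, summing to 2630 to 2648 and 2521 to 2679, with *Cd4* at 77.5 to 81.2 in WT and 116 to 118 in KO, and *Trat1* and *Cd28* higher and *Cd2* lower in KO. The part of other cells in the results above was not tested. Of 5 sex-linked transcripts, *Xist*, which is transcribed from the inactive X chromosome of female cells, was tested and not called. It had 1.69, 1.95 and 2.44 RPKM in WT and 1.52, 1.39 and 2.0 in KO, and was between 0.946 and 2.44 over all 24 columns. The Y-linked *Ddx3y*, *Uty*, *Eif2s3y* and *Kdm5d* were at most 0.0326 in any column, and no column stood apart in these transcripts. Every column thus had *Xist* and almost no Y-linked RNA, although the study describes mice of both sexes. The sample titles do not give the sex of the donors.

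In control cultures, without added TGF-β, 237 of 9644 genes (2.46%) differed between the genotypes. Of the genes called under TGF-β, 163 were called there too, which is 17.4% of the former and 68.8% of the latter, and 158 had the same direction. *Ccr8* was at 50.9 to 58.1 RPKM in WT control and 6.14 to 7.84 in KO control (−2.80), *Il9* at 8.15 to 10.9 and 0.249 to 0.583 (−2.96), and *Foxp3* at 5.23 to 6.12 and 1.36 to 1.48 (−1.46). These 3 genes were therefore lower in KO with and without added TGF-β. In KO TGF-β libraries *Foxp3*, at 3.92 to 4.75, and *Ccr8*, at 13.4 to 16.2, lay above the KO control values, a difference that rests on the inferred KO order and was not tested.

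The test of genotype by TGF-β, which asks whether the genotype difference under TGF-β differs from that in control, called 456 of 9678 genes (4.71%). *Aqp3*, *Nt5e* and *Foxp3* were among them, whereas *Il9* was not (−1.05, adjusted p = 0.020) and *Stat5a* was short of the fold threshold (−0.45). *Serpinb9* and *Il2* were alike in both control groups, at 33.5 to 37.5 and 48.9 to 76.6 over the 6 control libraries, and *Stat4* at 23.8 to 28.5. In WT TGF-β all 3 were far below those ranges, and in KO TGF-β near them. *Gzmb* was higher in WT than KO in control, at 203 to 265 against 94.1 to 115, and lower in WT than KO under TGF-β. Genes called in opposite directions in both comparisons were *Gzmb*, *Ccl3*, *Ccl4*, *Csf2* and *Il3*, and the last 4 are named after their values were seen. The comparisons share the TGF-β libraries, so no count of shared calls is given for this test.

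**Figure D5:**
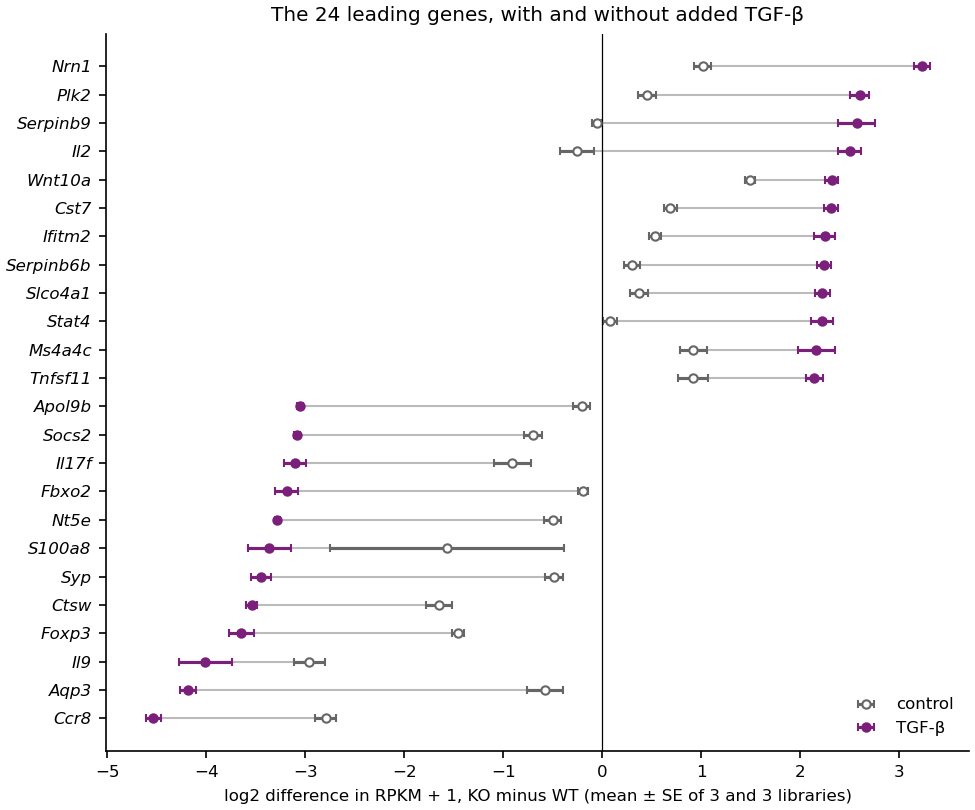
Log2 difference, KO minus WT, in control (open) and TGF-β cultures (filled) for the 12 genes with the largest increase and the 12 with the largest decrease under TGF-β, with SE from 3 and 3 libraries. All 24 lie farther from 0 under TGF-β than in control, with *Ccr8* at −4.54 and −2.80. The genes were chosen by their difference under TGF-β, which by itself favours a larger value there.

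Under TGF-β + IL-4, 831 of 9851 genes (8.44%) differed between the genotypes. Calls in both this comparison and that under TGF-β alone numbered 541, which is 57.7% of the calls under TGF-β and 65.1% of those under both cytokines, and 540 had the same direction. *Il9*, *Foxp3* and *Aqp3* differed by −3.67, −3.71 and −4.01 there, and *Il2* by 0.97. Of the 938 genes called under TGF-β, 106 were called in all 3 cultures compared here and 340 in the TGF-β culture only. A gene not called in a culture may still differ there. The cultures with IL-4 alone were not compared. Whether the genotype difference changes with IL-4 was not tested here.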

How the data were processed

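RNA-seq libraries of CD4+ T cells were made with Smart-seq2. Per the study's methods and the submitters' processing notes, the authors aligned to mm9 using Bowtie2, discarded poorly mapped and duplicate reads, and deposited RPKM for 24089 genes in 24 libraries, with no counts, so total read numbers are unknown. The relative depth was read from the steps between low values. Peak lists of 4 DNase-seq libraries were not used.

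Groups came from the sample labels, and columns were assigned by library number as described above. No pair of columns correlated above 0.9974, so none was a copy of another. Values were compared as log2(RPKM + 1) with limma 3.58.1 in R 4.3.3 (empirical Bayes moderation with an intensity trend), with only the compared groups in a fit, Benjamini-Hochberg adjustment over all genes tested, and calls at an adjusted p below 0.01 with a fold change above 1.5, the thresholds of the study. RPKM are not counts, so no count test was run. The script was tested on simulated data. The genes named are *Tgfbr1*, *Il9*, *Dbp*, *E2f8* and *Stat5a*, the 12 called genes with the largest increase and the 12 with the largest decrease without overlap, and of each of 29 gene lists up to 6 called genes with the largest differences and up to 2 of the most abundant not called, while further list members are named where a count is small. The members and the lists were chosen with earlier results of these data known. Tables and figures were made with Python 3.11.15, pandas 2.3.3, numpy 2.4.6 and matplotlib 3.10.9, positions are from GENCODE vM1 (mm9), and RefSeq windows were found for 114 of 157 named genes. Alternatives were another pseudocount, other filters, scalings, moderation and thresholds, all libraries in one fit, the replicate block, leaving out each replicate, and the columns as headed. Some items are not reported here.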

Additional observations from a re-analysis of the deposited data

Results flagged for a closer look

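The genotype difference under TGF-β differed from that in control for 456 genes by the test of genotype by TGF-β in limma, given here as the log2 difference under TGF-β minus that in control. Among the leading genes higher in KO it was 2.21 for *Nrn1*, 2.14 for *Plk2*, 2.63 for *Serpinb9*, 2.75 for *Il2*, 0.83 for *Wnt10a*, 1.62 for *Cst7*, 1.71 for *Ifitm2*, 1.94 for *Serpinb6b*, 1.85 for *Slco4a1*, 2.14 for *Stat4*, 1.24 for *Ms4a4c* and 1.23 for *Tnfsf11*. Among those lower in KO it was −1.74 for *Ccr8*, −3.61 for *Aqp3*, −2.19 for *Foxp3*, −1.89 for *Ctsw*, −2.96 for *Syp*, −2.78 for *Nt5e*, −3.00 for *Fbxo2*, −2.19 for *Il17f*, −2.38 for *Socs2* and −2.85 for *Apol9b*. It was −1.84 for *Tgfbr1* and −0.90 for *Dbp*. The leading genes were chosen by their difference in the same TGF-β libraries, which favours a large value in this test. Their passing it is therefore no independent evidence.

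Further genes had genotype differences of opposite sign in the 2 cultures and passed the same test. The value was 3.23 for *Gzmb*, 1.65 for *Eomes*, −1.61 for *Klf2*, 1.09 for *Itgb3*, 0.75 for *Itga3* and 1.51 for *Gfi1*, which were called under TGF-β. It was 0.75 for *Ccr7*, 0.83 for *Bhlhe40*, 0.90 for *Il21r*, 0.60 for *Nr4a1*, 1.66 for *Plaur* and 0.67 for *Cd8b1*, which were not called under TGF-β. In several of these 1 of the 2 differences was close to 0, as in *Klf2* with 0.08 in control.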

How the results depend on the processing

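The number of genes called for KO versus WT under TGFb, 938, stayed within 1.5 times that value under all alternatives but 2. With a mean RPKM of at least 5, which tests fewer genes, it was 591, and the counts were 149 in control, 550 under TGFb+IL4 and 284 for the genotype by TGFb interaction. With the columns as headed, limma called 0 genes under TGFb (3284 at an unadjusted p under 0.05), 7 in control (2439), 0 under TGFb+IL4 (1821) and 0 for the interaction (1022). By library number each group as headed mixes cultures. Leaving out each replicate gave 868 to 945 genes under TGFb, 161 to 230 in control, 626 to 1116 under TGFb+IL4 and 412 to 448 for the interaction.

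The replicate numbers are not known to pair libraries. The deviations of same-numbered TGF-β libraries correlated at −0.15, −0.46 and −0.07 between WT and KO. With the number as a replicate block 901 genes were called under TGFb, 160 in control and 774 under TGFb+IL4. Control and TGF-β libraries of the same genotype and number had correlations from −0.05 to 0.56, which do not show pairing for every number, and with genotype and number as a replicate block the interaction called 523 genes.

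Of the 111 called genes named, none changed direction under an alternative in which it was tested. With the columns as headed 107 of them were tested, and all 107 lost the call. Under the other 15 alternatives 12 lost it at least once, *Aurkb*, *Bub1*, *Ccl17*, *Ccnb1*, *Cd79a*, *Cdkn1a*, *Cdkn2d*, *Irf7*, *Itgb7*, *S1pr1*, *Stat2* and *Tgfb1*. A call was gained by *Irf4* (−0.59) without WT TGFb replicate 3, by *Plaur* without WT TGFb replicate 1 (0.64) and with quantile normalization (0.59), and by *Csf3r* with a pseudocount of 0.1 (−0.62). Genes that were not called and changed sign as headed were *Srgn* (−0.13), *Ccr7* (−0.24), *Itgal* (−0.15), *Csnk1d* (0.37), *Bhlhe40* (−0.22), *Gapdh* (−0.03), *Il21r* (−0.17) and *Cd79b* (−0.36). With quantile normalization *Tgfbr3* (0.02) and *Itgal* (−0.01) did, and leaving out each replicate gave −0.11 to 0.03 for *Tgfbr3*, −0.06 to 0.01 for *Tgif2*, −0.05 to 0.11 for *Srgn* and −0.03 to 0.07 for *Itgal*. Without counts, the depth behind low RPKM values is unknown.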
